A study of Anopheles gambiae with 6 samples.

Results

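Some gene numbers on the array carry coding-sequence probe sets for more than one transcript variant, and these numbers are described here in larval salivary gland and in whole larvae of the malaria mosquito Anopheles gambiae. A probe set identifier names a chromosome arm, a number, a variant digit and, where it ends in CDS, the coding sequence. Every number on a placed arm whose CDS probe sets bear at least 2 different variant digits was taken, which gave 434 of 11653 numbers and 932 of 12257 CDS probe sets. What the variant digit stands for (splice forms, alternative exons or separate gene models) was not defined in any file or label used. The files do not pair the identifiers with gene names, so no function can be given for a number, the tissue labels could not be checked against marker genes, and no probe sequence is shown.

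RNA came from larvae of the G3 strain in their last (4th) instar, reared at 28 °C, and the labels name no treatment. There were 3 pools of salivary glands, each dissected from 50 larvae, and 3 pools of 200 whole larvae, with 1 Affymetrix array for each pool. The labels call the pools biological repeats but do not say whether they came from separate rearings, so p-values measure the spread between these pools. Whole larvae still hold their glands, so a part was set against the whole. In pooled tissue, fewer cells of a type and less RNA per cell cannot be told apart.

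Many animal genes are cut into exons that can be joined in more than one way, and a cell type may favour one form of a transcript over another. The larval salivary gland is a paired secretory organ of large polytene cells that releases its products into the mouth. On Affymetrix arrays in general, the suffix _a_at marks a probe set shared by several transcripts of one gene, _s_at one shared between transcripts of different genes, and _at one without such sharing. A pair of _a_at probe sets can therefore read overlapping transcripts.

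The multi-variant numbers comprised 909 variants, of which 23 had 2 CDS probe sets. Of the 434 numbers, 406 had 2 variants, 25 had 3, 1 had 4, 1 had 8 and 1 had 10. They lay on all placed arms, with 116 on 2L, 115 on 2R, 74 on 3L, 96 on 3R and 33 on X, or 3.07% to 4.33% of each arm's numbers. The suffix _a_at was borne by 472 of their probe sets (50.6%), against 16.6% of CDS probe sets of numbers with 1 variant. Another 363 bore _at, 96 bore _s_at and 1 bore _x_at.

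Levels are log2 RMA values, RMA being a method that summarises the probes of an Affymetrix probe set, and each difference is gland minus whole larva. A probe set was called higher or lower when its limma p, adjusted over all 16884 Anopheles probe sets, was under 0.01 and the tissues differed by 2-fold or more, and "gland-high" means called higher. A low and a higher background level were used, each the 95th percentile of a class of probe sets on each array. The low one, from probe sets for the malaria parasite Plasmodium that the same array carries, was part of the call. The higher one, from 290 probe sets with purely numeric identifiers, averaged 6.65 ± 0.036 over the gland arrays and 6.02 ± 0.075 over the whole-larva arrays (SD, n = 3 each), and is called the numeric floor. Of the 932 probe sets, 886 lay above the low level on all arrays of at least 1 tissue, and of the 909 variants 382 (42.0%) lay at or under the numeric floor on all 6 arrays.

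Among the 932 CDS probe sets, 18 were higher in gland (1.93%) and 86 were lower (9.23%), and 828 were not called. Over all Anopheles probe sets the shares were 2.39% higher and 4.99% lower. Counted by number, 14 of 434 had a gland-high variant (3.23%) and 56 had a variant lower in gland (12.9%). Of the 11219 numbers with 1 variant, 2.59% had a higher and 4.98% a lower call. A multi-variant number has more probe sets that could be called, and variants of a number may share sequence, so these shares are a description and were not tested. The median difference was 0.012 over the 932, against 0.068 for the whole set of Anopheles probe sets. The 3 gland values all lay above the 3 whole-larva values for 186 of the 932 (20.0%), against 24% of all Anopheles probe sets, and all below them for 230 (24.7%), against 17.7%. The counts of calls moved with single arrays: 10, 8 and 9 probe sets stayed higher and 56, 47 and 54 lower when gland replicate 1, 2 and 3 was left out in turn. Whole-larva arrays varied more, with a median SD per probe set of 0.154 in gland and 0.272 in whole larvae. Quantile normalization applied again gave 37 higher and 84 lower, so that the higher share of the calls, 17.3% as deposited, depended on scaling.

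Variants of one number had the same direction in most pairs, with gaps of varying size. With the 2 lowest variant digits of each number, the median size of the difference between the variants' tissue differences was 0.34 on the log2 scale (quartiles 0.15 and 0.73, 434 pairs), and 300 of 434 pairs had the same sign (69.1%). Across these pairs Pearson's r was 0.578 and Spearman's rho 0.517. The pairs share the same 6 arrays and are not independent replicates. For consecutive numbers on an arm the median was 0.47 over 11077 pairs, 54.8% had the same sign and r was 0.095. For 2 CDS probe sets of one variant the median was 0.32 over 23 pairs, and for the UTR and CDS probe sets of one variant it was 0.34 over 67 pairs, with the same sign in 80.6%. A gap of 2-fold or more was present in 15.7% of the pairs of variants, in 1 of 23 pairs of CDS probe sets of one variant (4.35%), in 17.9% of the UTR and CDS pairs and in 24.4% of the consecutive numbers, shares that were not tested against each other.

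Agreement differed by brightness and by the kind of probe set. Here a variant counts as bright when its mean over the 6 arrays exceeded 6.34, the mean of the numeric floor, and 337 of 909 variants did. Where both of the 2 lowest variants were bright, 74 of 97 pairs had the same sign (76.3%, r = 0.669). Among these, 30 pairs of _a_at probe sets had a median difference of 0.38 and the same sign in 27 (90.0%, r = 0.875). The 14 bright pairs of _at probe sets had a median of 1.02 and the same sign in 8 (57.1%, r = 0.585), and the 20 bright pairs of 1 _a_at and 1 _at probe set lay between, at 0.63. Bright consecutive numbers had a median of 0.82 over 2131 pairs. Where neither variant was bright the median was 0.26 over 207 pairs, a level at which a probe set has little room to differ. At any brightness, the 127 _a_at pairs had a median of 0.32 and the same sign in 71.7%. The 154 pairs of 1 _a_at and 1 _at probe set had 0.30 and 72.1%. The 66 _at pairs had 0.58 and 53.0%, no closer than consecutive numbers at 0.47 and 54.8%. None of these differences between kinds of pairs was tested, and the 14 bright pairs of _at probe sets are few.

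**Figure D1:**
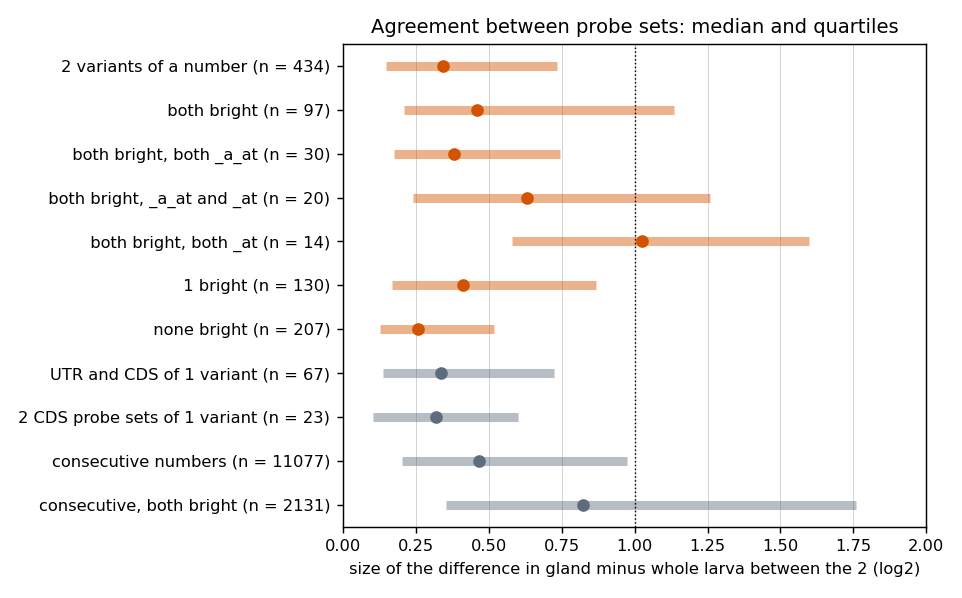
Size of the difference in gland minus whole larva (log2) between 2 probe sets or variants, as the median (point) and quartiles (bar) over the pairs given in brackets. Orange rows are the 2 lowest variants of a number and grey rows are other kinds of pairs, bright means a mean level above 6.34, and the dotted line marks 2-fold. Bright pairs that both bear _a_at lie near 0.38 and bright pairs that both bear _at near 1.02.

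The question whether 2 variants of a number respond to tissue differently was then tested directly. On each array the value of the variant with the higher digit was subtracted from that of the variant with the lower digit, and these within-array differences were compared between gland and whole larvae for all 560 pairs with limma, a linear model that shares its estimate of the spread across pairs. The resulting gap is that of the lower digit minus that of the higher digit. The background over all pairs was 10.7% called: 60 pairs, in 51 numbers, had a Benjamini-Hochberg adjusted p under 0.01 and a gap of 2-fold or more. The lower digit had the higher gland minus larva difference in 23 of them and the lower one in 37. In 28 pairs the difference was at least 4-fold and in 12 at least 8-fold. Of the 60 called pairs, 23 had 2 bright variants, 27 had 1 and 10 had 0. Among the pairs of the 2 lowest digits, 22 of 97 with 2 bright variants were called (22.7%). With 1 bright variant it was 17 of 130 (13.1%), and with 0 it was 8 of 207 (3.86%). A gap that involves a dim variant rests in part on values near background. The median SE was 0.23. In 350 pairs (62.5%) the 95% interval lay within 2-fold in both directions, and 150 pairs fell in neither class. Of the 434 numbers, 249 (57.4%) had every pair within 2-fold by its 95% interval. Of the 350 pairs, 42 came from number 145 of arm 3R, dim throughout, and 28 from number 8 of arm 2R. Among the pairs of the 2 lowest digits, 49 of 97 with 2 bright variants lay within 2-fold, 68 of 130 with 1 and 139 of 207 with 0. Dim variants have little room to differ, so for them such an interval does not show agreement. Called pairs came from 13 numbers on 2L, 22 on 2R, 7 on 3L, 8 on 3R and 1 on X. A plain equal-variance test, the kind the series' design names, called 0 pairs after adjustment (smallest adjusted p = 0.011) and had 150 at an unadjusted p under 0.05, against 177 with limma.

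**Figure D2:**
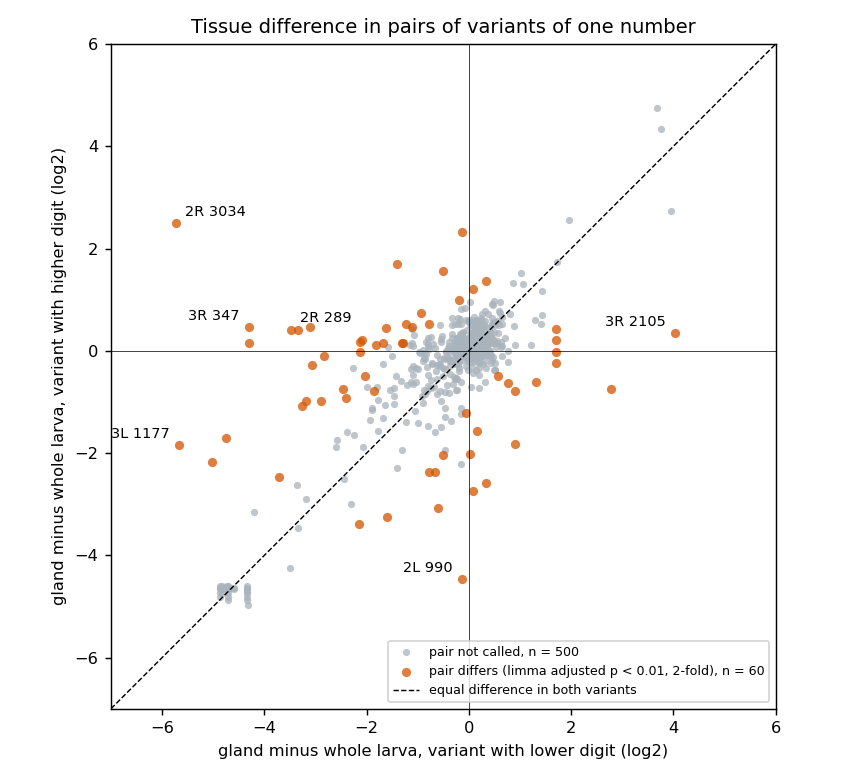
Gland minus whole-larva difference (log2) of the variant with the lower digit (x axis) and of the variant with the higher digit (y axis) of the same number, 1 point for each of the 560 pairs. Orange points are the 60 pairs that passed the test of the difference between variants, the dashed line marks equal differences, the 6 numbers with the widest gaps are labelled, and the 28 pairs of number 8 on arm 2R form the cluster near -4.7 on both axes.

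In 10 numbers one variant was gland-high and another was not, and in 8 of these the test between variants called at least 1 pair. Over all 434 numbers 51 had a called pair (11.8%). The class was formed from the same values as the test, which favours a called pair, so the 8 are no independent support for the split. Number 1123 of arm 2L held the brightest gland-high variant of the 10. Its variant 0 measured 13.65, 13.79 and 13.42 in gland, against 11.05, 10.68 and 10.80 in whole larvae, a difference of 2.77 (SE 0.195, limma adjusted p = 1.03e-04), which is 6.83-fold. Its variant 2 measured 5.56, 5.63 and 5.53 in gland, against 6.09, 6.26 and 6.59 in whole larvae, a difference of -0.74 that was not called (SE 0.167, limma adjusted p = 0.0205). Gland values lay above every whole-larva value for variant 0 and below every one for variant 2. The differences of variant 0 and variant 2 were apart by 3.51 (SE 0.221, limma adjusted p = 3.76e-06). All gland values of variant 2 lay under the numeric floor, so this gap sets a bright probe set against a dim one.

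Number 2105 of arm 3R had the largest gap of the 10. Variant 0 measured 10.33, 10.09 and 9.24 in gland, against 5.27, 6.46 and 5.85 in whole larvae, a measured difference of 4.03 (SE 0.389, limma adjusted p = 4.56e-04). Only 1 of the 3 whole-larva arrays exceeded the numeric floor, and against values raised to that floor the gland was at least 13.0-fold brighter. Variant 1 measured 4.45, 4.92 and 4.65 in gland, against 4.51, 4.25 and 4.20 in whole larvae, a difference of 0.35 (SE 0.158). All 6 values of variant 1 lay under the numeric floor, where a difference is hardly detectable, and the gap of 3.68 (SE 0.409, limma adjusted p = 1.55e-04) is one between a bright and a dim probe set. Number 165 of arm 2R had the same form. Its variant 0 lay at 4.85, 5.04 and 5.07 in gland, against 5.07, 5.89 and 5.54 in whole larvae, each below that floor. Its variant 1 was higher, with 7.17, 7.58 and 7.68 in gland, against 5.70, 5.72 and 6.29 in whole larvae, a difference of 1.57 (SE 0.233), and the gap between variants was -2.08 (SE 0.271, limma adjusted p = 3.88e-04). Of the 10 numbers, these 2 were the ones whose variants other than the gland-high one stayed below the floor on each of the 6 arrays.

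In number 522 of arm 3R both variants lay above the numeric floor on every array. Variant 2 measured 9.82, 9.85 and 10.65 in gland, against 7.30, 7.75 and 8.30 in whole larvae, a difference of 2.32 (SE 0.343, limma adjusted p = 0.00347), which is 5.00-fold. Variant 0 measured 7.73, 7.56 and 7.84 in gland, against 8.0, 7.64 and 7.92 in whole larvae, and its groups overlapped, with a difference of -0.14 (SE 0.20). The variants were apart by -2.46 (variant 0 minus variant 2, SE 0.302, limma adjusted p = 2.83e-04).

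In number 1296 of arm 2R the variants went opposite ways, both with the suffix _at. Variant 0 measured 6.39, 6.75 and 6.72 in gland, against 8.32, 8.26 and 7.5 in whole larvae, a difference of -1.41 that just missed the call (SE 0.266, limma adjusted p = 0.0103). Variant 1 measured 8.01, 7.37 and 8.15 in gland, against 6.22, 6.20 and 6.0 in whole larvae, a difference of 1.70 (SE 0.239, limma adjusted p = 0.00283). With 2 of 3 whole-larva arrays above the numeric floor, gland was at least 3.17-fold brighter. Neither variant's groups overlapped, and the gap was -3.11 (SE 0.296, limma adjusted p = 5.26e-05).

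Number 891 of arm 2L was the one number with calls in both directions, and its variant 1 had 1 of each. Variant 0 was lower, with 5.76, 6.03 and 5.47 in gland, against 7.65, 7.77 and 8.23 in whole larvae. Gland stayed below the numeric floor throughout, so whole larvae were at least 2.35-fold brighter (difference -2.13, limma adjusted p = 7.84e-04). Variant 1 had a probe set of each suffix. Its _at probe set was higher, with 7.95, 7.57 and 7.76 in gland, against 6.59, 6.42 and 6.74 in whole larvae (difference 1.18, SE 0.192, limma adjusted p = 0.00525). Its _a_at probe set was lower, with 5.50, 5.36 and 5.20 in gland, against 6.50, 6.67 and 6.55 in whole larvae (difference -1.22, SE 0.148, limma adjusted p = 0.00138). These gland values lay under the numeric floor. The whole-larva mean did not reach the gland average of that floor, 6.65, so no minimum fold can be given. Against the _at probe set variant 0 was apart by -3.31 (SE 0.248, limma adjusted p = 1.52e-05), and against the _a_at probe set by -0.91 (SE 0.237, limma adjusted p = 0.0224), which did not pass. The 2 probe sets that share digit 1 thus had opposite calls, the lower of them with dim gland values. Among the 23 variants with 2 CDS probe sets this was the one pair that differed by 2-fold or more (4.35%).

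Number 463 of arm 2R carried 4 variants, and variant 0 alone was gland-high. It measured 9.39, 9.32 and 9.39 in gland, against 7.42, 7.80 and 7.75 in whole larvae, a difference of 1.71 (SE 0.203, limma adjusted p = 0.00127), which is 3.27-fold. Variant 1, above the numeric floor on all 6 arrays, measured 7.41, 7.41 and 7.43 in gland, against 6.92, 7.17 and 6.88 in whole larvae, a difference of 0.43 (SE 0.174, limma adjusted p = 0.127). Variants 2 and 3 stayed below the floor throughout, with differences of 0.20 and -0.24. Variant 0 was apart from variants 1, 2 and 3 by 1.28, 1.5 and 1.95, and each of these passed (limma adjusted p = 8.66e-04, 0.00311 and 3.48e-04). Variants 1, 2 and 3 did not pass against each other (smallest adjusted p = 0.0543). A UTR probe set that bears digit 2 but the suffix _s_at was higher, with 10.63, 10.78 and 10.77 in gland, against 9.01, 8.62 and 7.97 in whole larvae (difference 2.20, SE 0.293, limma adjusted p = 0.00218). Its difference from the CDS probe set of the same digit, which lay under the numeric floor, was not tested.

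The remaining 3 numbers showed small gaps. In number 747 of arm 2R, variant 3 was higher at 7.50, 7.41 and 7.51 in gland, against 6.53, 5.92 and 6.34 in whole larvae (difference 1.21, SE 0.203, limma adjusted p = 0.00607). Variants 0 and 4 differed between the tissues by 0.08 and 0.11. The gap of variant 0 from variant 3 was -1.14 (limma adjusted p = 0.00326) and that of variant 3 from variant 4 was 1.10 (limma adjusted p = 0.0116). The first gap missed 0.01 without gland replicate 1 (limma adjusted p = 0.016), 2 (0.0294) or 3 (0.026). In number 762 of arm 3R the differences were 1.43 for variant 0 (called, limma adjusted p = 0.00347) and 0.69 for variant 1 (limma adjusted p = 0.0395). Their gap of 0.74 did not pass (95% interval 0.27 to 1.20, limma adjusted p = 0.0307). A further probe set of that number, with digit 2 and neither CDS nor UTR in its name, was called higher with a difference of 1.18, although all its values lay under the numeric floor. In number 657 of arm 2L variant 1 was called with 1.16 and variant 0, which had the larger difference of 1.43, was not (limma adjusted p = 0.00443 and 0.0137). Their gap of 0.27 had a 95% interval of -0.27 to 0.80. Variant 0 had the more scattered whole-larva values, with 8.04, 7.99 and 8.19 in gland, against 6.26, 7.28 and 6.38 in whole larvae, while variant 1 had 7.50, 7.60 and 7.65 in gland, against 6.41, 6.63 and 6.23 in whole larvae.

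**Figure D3:**
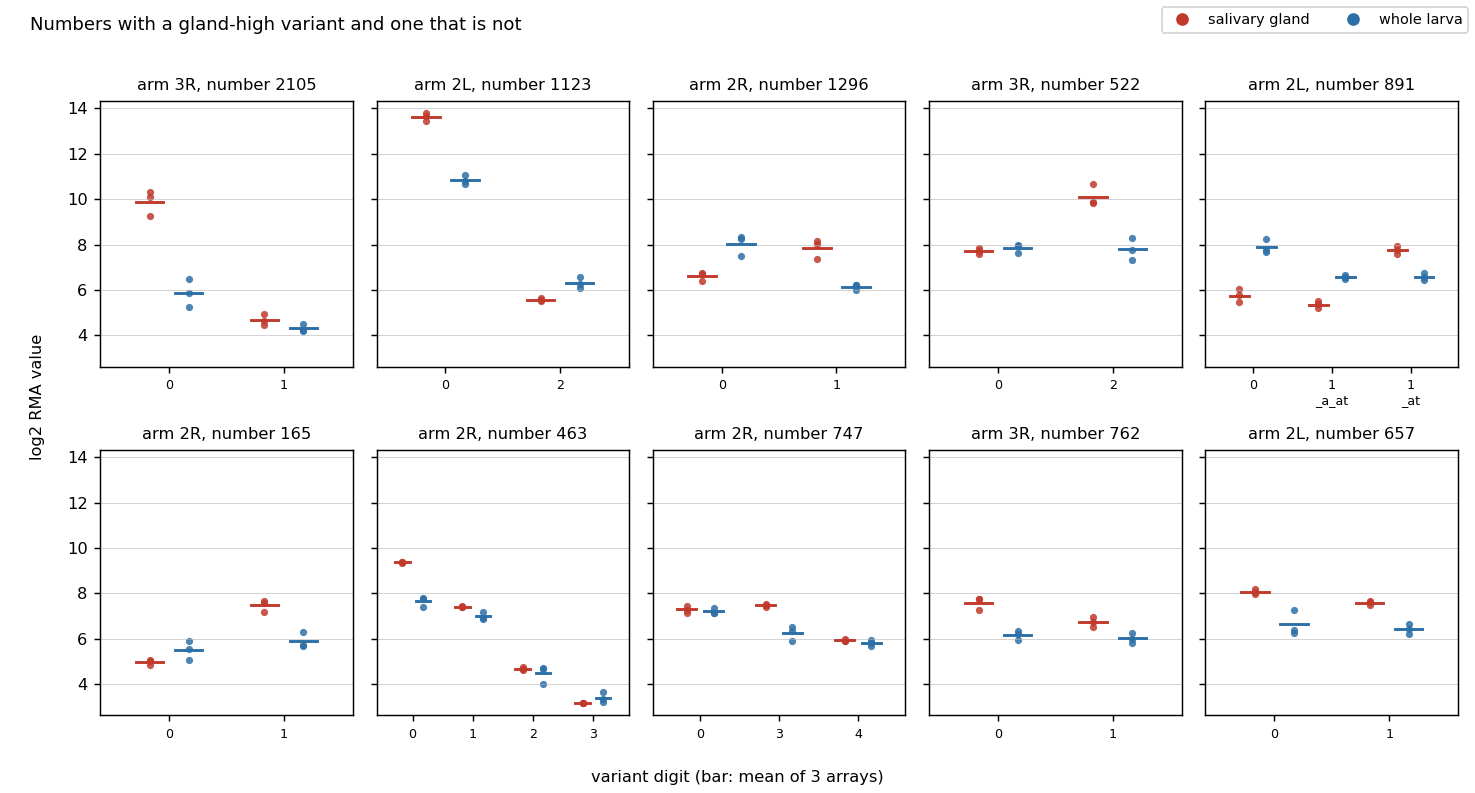
Log2 RMA values of the CDS probe sets of the 10 numbers with a gland-high variant and one that is not, by variant digit, with gland arrays in red to the left of whole-larva arrays in blue (3 arrays each, bar at the mean). Number 1123 of arm 2L and number 2105 of arm 3R, each with a dim variant, show the widest split between variants. Number 657 of arm 2L shows nearly the same difference in both variants.

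How many numbers were split depended on single arrays. Without gland replicate 1, 2 or 3 there were 6, 6 or 5 such numbers in place of 10, and without whole-larva replicate 1 there were 17. Quantile normalization applied again gave 21. Numbers 1123 and 2105 stayed in the class in all 6 fits that left out 1 array. The other 8 stayed in 1 to 4 of the 6. For these chosen numbers the test between variants was steadier: 7 of the 10 kept a called widest pair in all 6 fits. Number 747 kept it in 3 and numbers 762 and 657 in 0. The widest pair of number 891 uses the average of 2 probe sets with opposite calls. Over all pairs the test was less steady, with 60 called on every array and 41 without gland replicate 1. The members just inside and just outside the 2-fold limit at an adjusted p under 0.01 were variant 1 of number 1325 on 3R (-1.02) and variant 2 of number 156 on 2L (-0.98).

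In all, 4 numbers were gland-high in every variant, and 3 of these lay on arm 3L. That arm held 74 of the 434 numbers and 0 of the 10 split numbers, and a link to the arm was not tested. Of the 4 pairs of the numbers high in every variant, 0 passed the test between variants in limma or in the plain test. An unadjusted limma p under 0.05 was found for 3 of them. Number 1783 of 3L was the brightest. Its variant 0 measured 14.13, 14.15 and 14.08 in gland, against 9.04, 11.25 and 11.06 in whole larvae, a difference of 3.67 (SE 0.535, limma adjusted p = 0.00328), which is 12.7-fold. Its variant 1 measured 13.45, 13.35 and 13.78 in gland, against 8.73, 9.14 and 8.49 in whole larvae, a difference of 4.74 (SE 0.243, limma adjusted p = 3.48e-05), which is 26.8-fold. Their gap of -1.07 (95% interval -2.12 to -0.03) did not pass (limma adjusted p = 0.147), and it passed without whole-larva replicate 1 (-1.75, limma adjusted p = 9.61e-05).

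Number 1690 of 3L rose by 3.76 in variant 0 (9.22, 9.48 and 10.14 in gland, against 5.62, 6.16 and 5.80 in whole larvae) and by 4.34 in variant 1 (9.96, 10.03 and 10.51 in gland, against 5.27, 6.24 and 5.96 in whole larvae). In both variants 1 of 3 whole-larva arrays exceeded the numeric floor, so these rises are measured values, and gland was at least 11.5-fold and 16.6-fold brighter against that floor. The measured gap was -0.59 (95% interval -1.07 to -0.11, limma adjusted p = 0.088). Number 1343 of 3L rose by 3.95 in variant 0 and by 2.73 in variant 1. Variant 1 stayed below the numeric floor in whole larvae, so its rise was at least 4.12-fold, and the gap of 1.22 (limma adjusted p = 0.0146) passed without whole-larva replicate 1 (1.48, limma adjusted p = 0.00219). Number 379 of arm 2L rose by 1.97 in variant 0 and by 2.57 in variant 1, with a gap of -0.60 (95% interval -1.30 to 0.10).

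In 40 of the 56 numbers with a lower call (71.4%) a variant was lower in gland and another was not called lower. On the higher side the split numbers made up the same share, 10 of 14 (71.4%). In 20 of the 40 the test between variants called a pair, against 11.8% of all 434 numbers. This class too was formed from the same values as the test. In 9 of the 40 every variant that was not lower stayed below the numeric floor throughout. Of the 20 with a called pair, 14 had a variant not called lower that rose above the floor on at least 1 array.

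The widest gap of all 560 pairs was in number 3034 of arm 2R, whose variants both bear _at. Variant 0 was lower, with 7.07, 6.87 and 7.99 in gland, against 12.81, 13.09 and 13.22 in whole larvae, which were 53.0-fold brighter (difference -5.73, SE 0.325, limma adjusted p = 4.94e-05). Variant 1 measured 8.47, 8.76 and 10.55 in gland, against 6.93, 6.83 and 6.51 in whole larvae, a difference of 2.50 that was not called (SE 0.513, limma adjusted p = 0.0142). Gland replicate 3 stood well above the other gland arrays in variant 1 and was also the highest in variant 0. Neither variant's groups overlapped, and the variants were apart by -8.23 (SE 0.31, limma adjusted p = 1.12e-07).

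Number 347 of arm 3R held 1 lower variant and 2 that were not called. Variant 0 had 2 probe sets that were both lower. Its _a_at probe set measured 4.55, 4.21 and 4.26 in gland, against 9.34, 8.99 and 8.45 in whole larvae, and its _s_at probe set measured 4.80, 4.89 and 4.81 in gland, against 9.73, 8.45 and 8.40 in whole larvae. Gland lay under the numeric floor, so whole larvae were at least 4.85-fold and 4.63-fold brighter. Variant 1 measured 7.91, 8.06 and 8.18 in gland, against 7.72, 7.14 and 7.91 in whole larvae, a difference of 0.46 (SE 0.25, limma adjusted p = 0.231), and variant 2 was dim on all 6 arrays. Variant 0 was apart from variant 1 by -4.77 (SE 0.325, limma adjusted p = 6.23e-06). A further _a_at probe set of this number, with digit 3 and no CDS in its name, was lower by -3.99 (SE 0.26).

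Number 990 of arm 2L had variant 1 lower at 6.99, 6.77 and 7.27 in gland, against 11.19, 11.94 and 11.28 in whole larvae, a difference of -4.46 (SE 0.275, limma adjusted p = 6.72e-05), which is 22.0-fold. Variant 0, an _s_at probe set, measured 6.29, 6.15 and 5.95 in gland, against 5.78, 6.55 and 6.49 in whole larvae, and its groups overlapped (difference -0.14). All its gland values lay under the numeric floor, where a difference is hardly detectable. The gap was 4.32 (SE 0.263, limma adjusted p = 3.60e-06). A probe set of digit 2 without CDS in its name was lower by -4.54 (SE 0.283).

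In number 289 of arm 2R variants 0 and 15 were lower alike, by -3.34 (SE 0.308) and -3.47 (SE 0.278), with a gap of 0.13 (95% interval -0.32 to 0.57). Variant 16 lay at 5.91, 5.96 and 5.92 in gland, against 5.41, 5.36 and 5.77 in whole larvae, under the numeric floor. Of the UTR probe sets of this number, that of digit 0 was lower by -3.81 (SE 0.269, limma adjusted p = 1.03e-04). That of digit 15 measured 7.27, 7.14 and 7.61 in gland, against 7.55, 8.36 and 6.94 in whole larvae, with a difference of -0.28 (SE 0.356, limma adjusted p = 0.618), and the difference between these UTR probe sets was not tested.

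In numbers 622 of arm 2L and 748 of arm 2R the lower variant was an _s_at probe set. Variant 0 of number 622 measured 5.54, 5.59 and 5.75 in gland, against 9.53, 8.65 and 8.02 in whole larvae, which were at least 4.24-fold brighter, and variant 2 was dim. Variant 1 of number 748 measured 4.65, 4.47 and 4.79 in gland, against 8.21, 7.05 and 6.87 in whole larvae, which were at least 1.65-fold brighter. Variant 0 of number 748 measured 6.40, 6.01 and 5.90 in gland, against 6.11, 6.29 and 5.70 in whole larvae, with overlapping groups and all gland values under the numeric floor. The UTR probe set of that variant differed by -0.24 (SE 0.432). The gap between the variants of number 748 was 2.81 (SE 0.339, limma adjusted p = 2.67e-04). Since _s_at probe sets can also read other genes, their own part in these gaps was not tested. Without all _s_at and _x_at probe sets, 47 pairs passed.

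**Figure D4:**
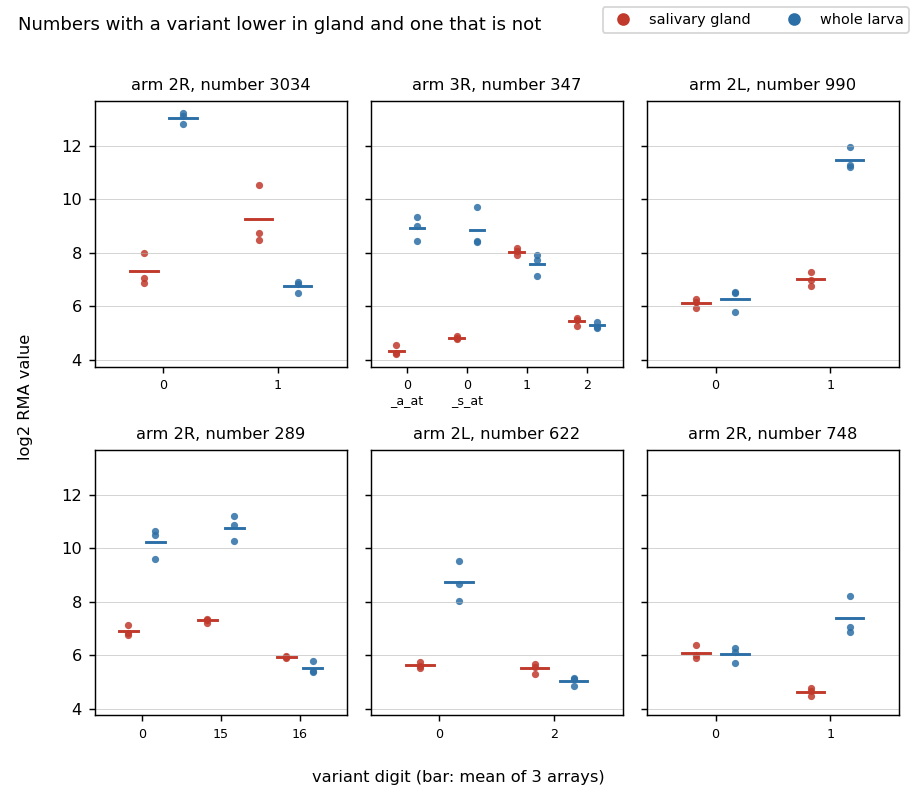
Log2 RMA values of the CDS probe sets of the 6 numbers with the widest gap among those with a variant lower in gland and another that is not, by variant digit, with gland arrays in red to the left of whole-larva arrays in blue (3 arrays each, bar at the mean). In number 3034 of arm 2R variant 0 lies lower and variant 1 higher in gland on every array.

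All variants were lower in gland in 15 numbers with no higher call, and 6 of these had a called pair, against 11.8% of all 434 numbers. In all 6 at least 1 variant lay under the numeric floor on every gland array, and in 3 every variant did, so a gap between their measured values does not show that the variants fell by unequal amounts. The number with 8 variants, number 8 of arm 2R, was lower in each of them. Its variants 0 to 7 had _a_at probe sets with differences from -4.87 to -4.60, and an _s_at probe set of variant 0 had -3.84, and all 9 were called lower. That probe set measured 10.04, 9.77 and 9.72 in gland, against 13.43, 14.09 and 13.54 in whole larvae, above the numeric floor throughout, and whole larvae were 14.3-fold brighter. The _a_at probe set of variant 7 measured 6.83, 6.46 and 6.42 in gland, against 11.38, 11.49 and 10.78 in whole larvae (limma adjusted p = 4.94e-05). Its gland replicates 2 and 3 lay below 6.65, the gland average of the numeric floor. The size of its fall, and its closeness to other variants, thus rests in part on values near background. With both probe sets of variant 0 averaged, all 28 pairs of this number stayed within 2-fold by their 95% intervals, and the widest gap was 0.53. Taken alone, the _s_at probe set was apart from variants 1 to 7 by 0.76 to 1.03 (smallest limma adjusted p = 0.0148, none under 0.01), and the _a_at probe set of variant 0 was apart from variant 2 by 0.03. By limma 0 of the 28 passed (smallest adjusted p = 0.0949), 3 had an unadjusted p under 0.05, and 0 passed the plain test. Since 9 of the 86 lower probe sets belong to this one number, and _a_at probe sets can share transcripts, its variants are not 8 separate readings.

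Number 162 of arm 3R was lower by -4.31 in variant 0 (6.69, 6.76 and 6.49 in gland, against 11.53, 11.01 and 10.35 in whole larvae) and by -4.97 in variant 3 (7.80, 7.74 and 7.67 in gland, against 12.21, 13.17 and 12.75 in whole larvae). The gap was 0.66 (95% interval -0.19 to 1.51), and it passed without whole-larva replicate 1 (1.19, limma adjusted p = 9.44e-04). Its 3 UTR probe sets, of digits 0, 34 and 54, were lower by -3.33, -4.34 and -4.34. Number 191 of arm 3R was lower in variants 0 and 2, with gland under the numeric floor in both, and whole larvae were at least 7.58-fold and 3.34-fold brighter.

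The number with 10 variants, number 145 of arm 3R, gave no call in any of them. Every value of the 10 lay under the numeric floor, between 3.18 and 5.12, and the differences ran from -0.27 to 0.53. The largest belonged to variant 7, with 4.14, 4.14 and 4.18 in gland, against 3.57, 3.41 and 3.91 in whole larvae (SE 0.143, limma adjusted p = 0.0384). At this brightness a difference between the variants was hardly detectable. By limma 0 of the 45 pairs passed (smallest adjusted p = 0.011), 10 had an unadjusted p under 0.05, and 0 passed the plain test.

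**Figure D5:**
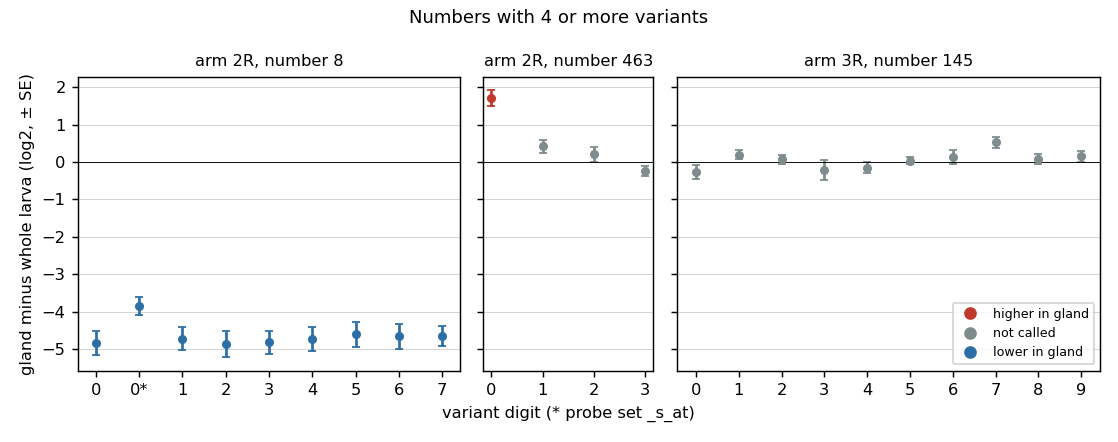
Gland minus whole-larva difference (log2, point) with its standard error (bar) for each CDS probe set of the 3 numbers with 4 or more variants, by variant digit. All probe sets of number 8 of arm 2R lie between -4.87 and -3.84, variant 0 of number 463 stands apart from the others at 1.71, and number 145 of arm 3R stays near 0.

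Probe sets outside the coding sequence gave a further reading for 99 of the 434 numbers. There were 79 UTR probe sets and 35 with neither CDS nor UTR in their names, 114 in all. Of these, 3 were higher (2.63%) and 21 were lower in gland (18.4%), against 2.39% and 4.99% of all Anopheles probe sets. Among the CDS probe sets of the multi-variant numbers 9.23% were lower. No share for the probe sets without CDS of other numbers was taken. The 21 are not separate readings, since some share a number, such as the 3 UTR probe sets of number 162 of arm 3R. These shares are a description and were not tested. Of the 10 numbers with a split on the gland-high side, 2 had a probe set without CDS in its name, those of numbers 463 and 762 described above.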

How the data were processed

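RNA of 3 gland and 3 whole-larva pools was hybridized to 1 array each, and the number of arrays limits the precision. The deposited values are log2 RMA values, RMA being the method the submitters' processing notes name. No source used here states its version or settings, or whether the 6 arrays went through it jointly. The unit was read from the range of the values, and nothing was normalized again. No pair of arrays was identical (0 pairs). Limma 3.58.1 in R 4.3.3 (lmFit, eBayes with an intensity trend) was fitted over 16884 Anopheles probe sets on 6 arrays, with Benjamini-Hochberg adjustment. A call also needed the brighter tissue above the 95th percentile of 4502 Plasmodium probe sets on all 3 arrays. For pairs, each variant's CDS probe sets were averaged, the within-array difference was fitted by limma with the trend on the pair's mean level, and p-values were adjusted over 560 pairs, which are not independent where a number has over 2 variants. Fits were tested on simulated data. Figures were drawn with matplotlib 3.10.9.

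Numbers named were all with a gland-high variant and another not (at most 12), all with calls in both directions (6), those higher in every variant (6), the widest 6 with a lower and a not-lower variant, 3 lower in every variant by their smallest difference, the 2 with most variants, and those nearest the 2-fold limit. The members, this rule and the lists were chosen with earlier results of these data known. Alternatives were other variance models, a replicate block, repeated quantile normalization, centring, probe set filters, separate probe set pairs, other thresholds, the plain test and leaving out each array.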

Additional observations from a re-analysis of the deposited data

How the results depend on the processing

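The numbers with a gland-high variant and one that is not (10), the probe sets called higher (18) or lower (86) and the pairs that differed (60) were recomputed under each alternative. Repeated quantile normalization gave 37 higher and 21 split numbers. An adjusted p under 0.05 gave 31 higher and 17 split numbers. A 4-fold limit gave 10 higher, 55 lower, 28 pairs and 4 split numbers. The plain equal-variance test gave 2 higher, 11 lower, 0 pairs and 2 split numbers. Pairs with both variants above the numeric floor on all arrays of a tissue numbered 146, of which 24 passed, against 60 of all 560. By mean level, 27 of those 60 had 1 bright variant and 10 had 0. Leaving out 1 array at a time gave 8 to 25 higher, 47 to 109 lower, 40 to 82 pairs, 5 to 17 split numbers and a median difference between variants of 0.317 to 0.356. The arrays share replicate numbers by label only, and same-numbered deviations from the group means correlated by 0.102, -0.087 and -0.0022. With the replicate block there were 13 higher, 71 lower, 53 pairs and 7 split numbers, and the gap in number 747 of arm 2R, -1.14, missed the threshold (limma adjusted p = 0.0125). Without the number whose variant held opposite calls, an alternative chosen after seeing the data, 9 split numbers were left. Of 324 comparisons of 26 named gaps with an alternative, 314 kept their direction and side of the threshold, 5 lost the call, 3 gained it and 2 reversed: the gap of number 1325 on arm 3R, 0.13 as reported, was -0.10 without gland replicate 2 and -0.083 without whole-larva replicate 2, and at most 0.33 with another array left out. The cause of these changes was not tested. With 3 arrays a tissue, and 42.0% of variants under the numeric floor throughout, a lack of a call in a dim variant does not show that it did not differ.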

Other observations

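In 365 of the 434 numbers no variant was called, and 17 of these 365 had a pair that passed the test between variants. That is a smaller share than the 11.8% of all 434 numbers, and this class too was formed from the same values as the test. The examples that follow were chosen after their values were seen. Number 376 of arm 3L had variant 0 at 6.73, 6.94 and 7.20 in gland, against 6.48, 6.69 and 6.71 in whole larvae, and variant 1 at 7.04, 6.80 and 6.62 in gland, against 8.36, 10.51 and 9.31 in whole larvae. The differences of 0.33 and -2.58 were apart by 2.91 (SE 0.438, limma adjusted p = 9.89e-04), while variant 1 itself missed the call (limma adjusted p = 0.0108) on whole-larva arrays that were far apart. Number 359 of arm 2L had variant 0 at 9.01, 8.90 and 9.07 in gland, against 8.33, 7.33 and 7.37 in whole larvae, a difference of 1.32, whereas its dim variant 2 differed by -0.60, a gap of 1.92 (SE 0.204, limma adjusted p = 1.14e-04). Number 558 of arm 3L had differences of 1.71 in variant 1 and -0.02 in variant 2, a gap of 1.73 (SE 0.329, limma adjusted p = 0.00409), and its UTR probe set of digit 0 was higher in gland (10.53, 10.29 and 10.31, against 9.14, 8.26 and 8.13 in whole larvae).

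Among the 15 numbers lower in every variant, 6 had a pair that passed the test between variants, among them number 1177 of arm 3L, also chosen after its values were seen. Its variant 0, an _s_at probe set, measured 4.67, 4.70 and 4.73 in gland, against 11.10, 10.09 and 9.92 in whole larvae, which were at least 13.2-fold brighter. Its variant 1 measured 4.59, 4.56 and 4.91 in gland, against 6.62, 6.93 and 6.02 in whole larvae. The measured gap was -3.83 (SE 0.316, limma adjusted p = 2.64e-05), with gland values of both variants under the numeric floor, so it does not show unequal falls.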
